A study of Mus musculus with 6 samples.

Results

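The genes that make, carry, read and clear retinoic acid were examined in 6 mouse cancer cell lines. The set was listed by gene symbol, with earlier results of these data known. It holds 9 of the 55401 genes in the deposited files: the synthesis enzymes Aldh1a1, Aldh1a2 and Aldh1a3, the binding proteins Crabp1 and Crabp2, the receptors Rara, Rarb and Rarg, and the clearance enzyme Cyp26b1. The RNA sequenced came from primary cancer cell lines of C57BL/6 mice, 3 taken from tumours of hosts labelled Rag1KO (replicates 1, 3 and 7) and 3 from tumours of hosts labelled WT (replicates 2, 4 and 6). Rag1 is needed to rearrange antigen receptor genes, and a mouse lacking it is without T and B cells; the series asks how tumour cells from immunocompromised and immunocompetent hosts differ. All lines had been grown out in medium with serum before RNA was taken, so the values describe cultured cells and not the tumours themselves. The labels name neither the tumour type nor the age or sex of the hosts, and nothing in them says that each line came from a separate animal, so p-values measure only the spread between these samples.

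Retinoic acid is a signalling molecule made from vitamin A. Cells take up retinol, oxidize it reversibly to retinaldehyde and then irreversibly to retinoic acid with an ALDH1A enzyme. CRABP proteins carry the acid through the cytosol, RAR proteins bind it in the nucleus as partners of RXR proteins and switch on genes at retinoic acid response elements, and CYP26 enzymes oxidize it for removal. The pathway sets cell identity in the embryo, restrains growth in many cultured cells, and shapes how fibroblasts and other mesenchymal cells differentiate.

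The level of a gene is given in normalized counts, its reads scaled by a single factor for each library. Libraries held 55409583 to 62998051 reads. Rag1 itself had 39.3, 126 and 177 normalized counts in Rag1KO replicates 1, 3 and 7 and 0 reads in every line labelled WT. A count per gene does not show whether these reads come from an intact gene, so they do not check the labels. Groups are called by their labels throughout. Most mesenchymal markers were abundant in these lines. The summed level over all 12 genes ran from 2154652 to 4054489 normalized counts in lines labelled Rag1KO and from 1120252 to 2894200 in lines labelled WT. Among them Dcn ranged from 197 to 11372, and Lum had 2478 in WT replicate 4 and at most 78.3 in any other line. Of 9 leukocyte markers, the T cell marker Cd3e had 0 reads in every library, but Lyz2 reached 1493 normalized counts in Rag1KO replicate 1. The summed level of that list was 445 to 2092 in lines labelled Rag1KO and 258 to 903 in lines labelled WT. For 7 melanocyte markers the sums were 711 to 1770 and 639 to 2254, in the same order. Most of each was Mitf, at 413 to 2149 normalized counts, and Pmel had 37.0 to 133. Dct had 0 reads in every library, and Tyr and Tyrp1 had at most 1 read in any. Sox10 had 323 normalized counts in Rag1KO replicate 7 and at most 1 read in any other line. For 5 endothelial markers the sums were 240 to 1531 and 41.4 to 1049. Of 7 epithelial markers, Epcam had 0 reads in every library, but the summed level of the list ran from 1761 to 6337 normalized counts in lines labelled Rag1KO and from 10.6 to 4856 in lines labelled WT. Most of it was Krt19, which had 0.880 in WT replicate 6, and Cdh1 and Krt18 reached 158 and 126 in WT replicate 4. WT replicate 6 stood apart: Col1a1, encoding a chain of type I collagen, had 206 normalized counts there and at least 478322 in each other line, and Thy1 had 0.880 there and at least 29802 elsewhere. The fold changes of the set are therefore also given without that line. The Y-linked genes Kdm5d, Uty and Ddx3y had reads throughout the 3 lines labelled Rag1KO and in WT replicate 6, which had 0 reads of the Y-linked gene Eif2s3y, while Xist, made from the inactive X chromosome of females, reached 59775 and 32733 normalized counts in WT replicates 2 and 4. Apart from WT replicate 6, sex-linked expression and host label cannot be told apart.

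The levels of most of these genes differed more between single lines than between the host labels. Of the 9 genes, 8 passed the filter on low values and were tested, and Aldh1a2 was not. Rara and Rarg stood at nearly the same level in all 6 lines, while 6 of the 8, Aldh1a1, Aldh1a3, Crabp1, Crabp2, Rarb and Cyp26b1, each spanned more than 8-fold. A span of at least 8-fold over the 6 libraries (3 on the log2 scale) was found in 20.7% of the 16137 genes tested. Between the groups, 0 of the 8 passed an adjusted p of 0.05 in limma, a linear model fitted to log2(value + 1) over all tested genes. The background there was 0.0062%, a single gene, the Y-linked Eif2s3y. At an unadjusted p under 0.05 there was 1 of 8, Cyp26b1, against a background of 4.67%. The median log2 fold change (Rag1KO minus WT) was 0.71 over the 8 genes and −0.0003 over all genes tested, and 6 of the 8 were positive. Without WT replicate 6 the median was 0.26, with 5 of 8 positive. WT replicate 6 was the lowest library for 6 of the 8 genes, where the background was 30.2%.

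**Figure D1:**
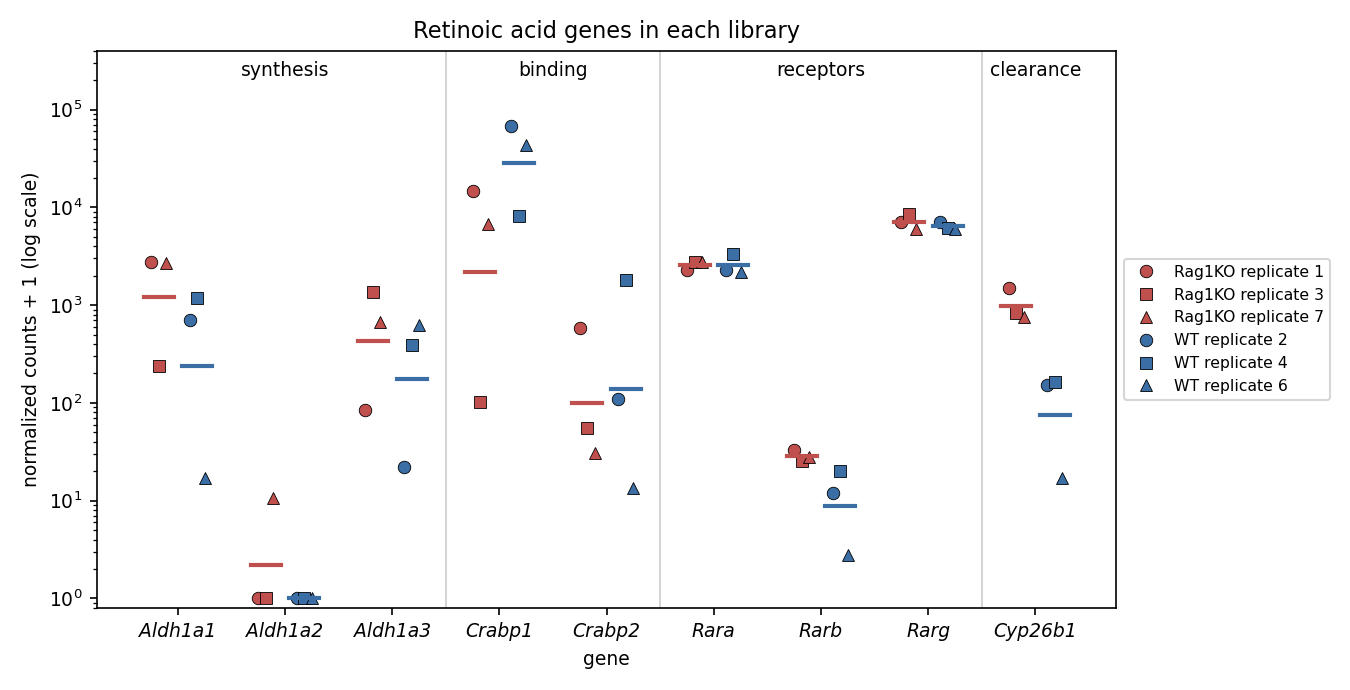
Normalized counts plus 1 on a log scale (y axis) for the 9 genes (x axis) in each library, lines labelled Rag1KO in red and lines labelled WT in blue, with horizontal bars at the mean taken on the log scale. Cyp26b1 and Rarb are the genes whose groups do not overlap among those tested, Rara and Rarg barely vary, and Crabp1 runs from 102 to 67431 normalized counts.

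The synthesis enzymes changed places from line to line. Aldh1a1 (ENSMUSG00000053279.8, chromosome 19, 20492715 to 20643465, mm10), a cytosolic retinaldehyde dehydrogenase often used as a marker of stem-like tumour cells, had 2748, 238 and 2667 normalized counts in Rag1KO replicates 1, 3 and 7, against 702, 1169 and 15.8 in WT replicates 2, 4 and 6. Rag1KO replicate 3 lay below WT replicates 2 and 4, so the groups overlapped, and WT replicate 6 was far below the rest. The means were 1884 ± 1427 and 629 ± 580.2 normalized counts (SD, n = 3 each), with a log2 fold change of 2.33 (SE 1.86, 95% interval −2.23 to 6.88, limma adjusted p = 0.850). It was 0.41 without WT replicate 6. Aldh1a7, a close paralogue next to it on chromosome 19, had 355, 53.3 and 678 normalized counts in lines labelled Rag1KO, against 306, 258 and 0 in lines labelled WT. Reads of the paralogues could be exchanged by the authors' counting, which was not stated, so the level of Aldh1a1 is uncertain.

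Aldh1a3 (ENSMUSG00000015134.15, chromosome 7, 66390890 to 66427517), the retinaldehyde dehydrogenase best known from the eye and nose of the embryo and from several carcinomas, had 83.4, 1356 and 667 normalized counts in lines labelled Rag1KO, against 21.1, 389 and 621 in lines labelled WT. Rag1KO replicate 3 and WT replicate 6, the lowest lines for Aldh1a1, were among its 3 highest lines, while Rag1KO replicate 7 was second highest for both genes. The groups overlapped, with means of 702 ± 637 and 344 ± 303 normalized counts (SD, n = 3 each) and a log2 fold change of 1.28 (SE 1.60, 95% interval −2.64 to 5.19, limma adjusted p = 0.874). The sign turned to −0.22 without WT replicate 2, and the value was 2.19 without WT replicate 6. Aldh1a2 (ENSMUSG00000013584.5, chromosome 9, 71215789 to 71296243), the main source of retinoic acid in the early embryo, had 10 reads in Rag1KO replicate 7, or 9.69 normalized counts, and 0 reads in the other 5 libraries. At 0 reads the upper limit is 3 reads, between 2.64 and 3.48 normalized counts in these libraries, and it covers counting error only.

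Per kilobase of exon, Aldh1a1 took 96.9%, 14.1% and 78.4% of the summed level of the 3 enzymes in Rag1KO replicates 1, 3 and 7, and 96.9%, 73.8% and 2.33% in WT replicates 2, 4 and 6. Nearly all of the rest was Aldh1a3. The sum moved less than its parts. It was 575, 342 and 689 normalized counts per kb in lines labelled Rag1KO, against 147, 321 and 138 in lines labelled WT, so the groups did not overlap, although Rag1KO replicate 3 exceeded WT replicate 4 by little. This sum was formed after the values were seen and was not tested.

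**Figure D2:**
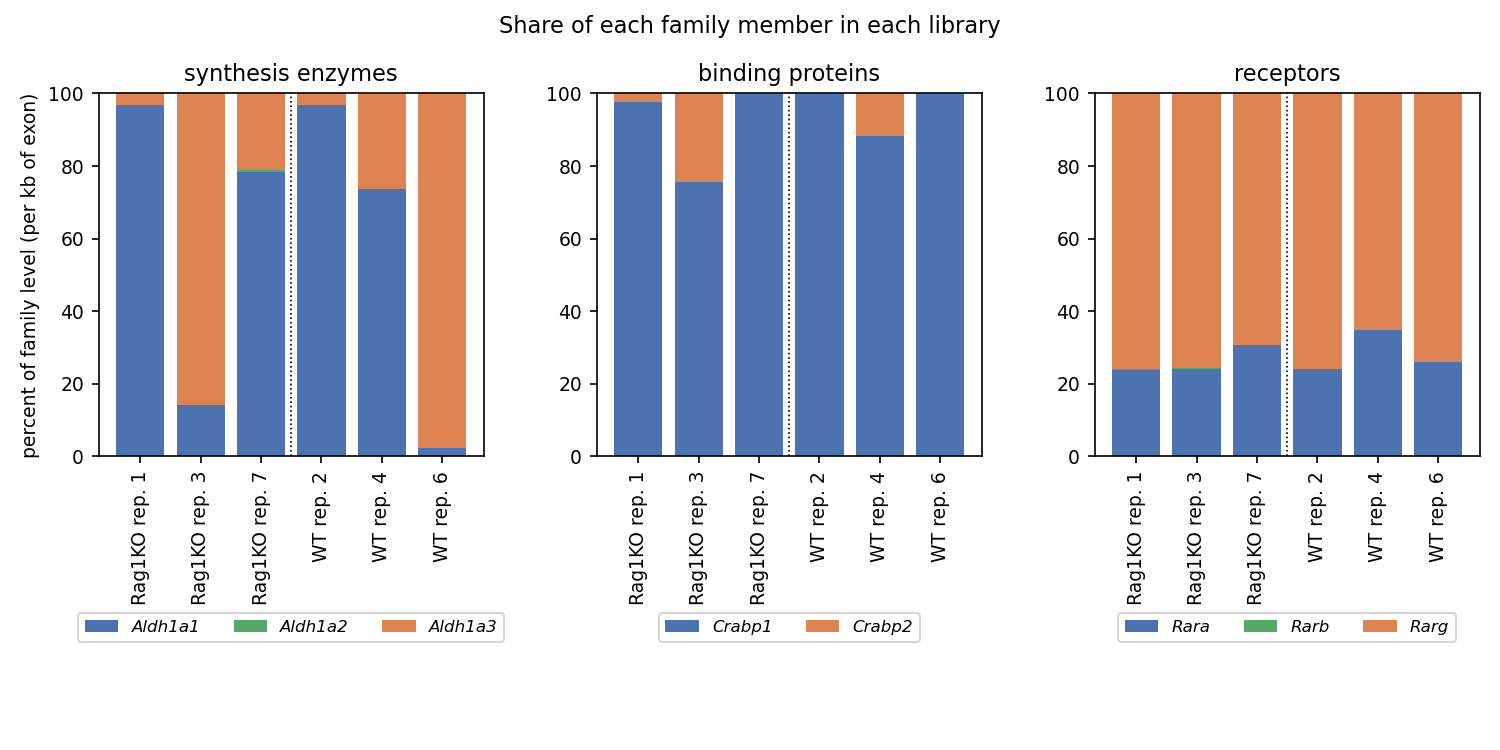
Share of each gene (y axis, percent) in the summed level of its family, in normalized counts per kb of exon, for each library (x axis, lines labelled Rag1KO left of the dotted line and lines labelled WT right of it). Aldh1a3 makes up 85.9% in Rag1KO replicate 3 and 97.7% in WT replicate 6, where Aldh1a1 leads in the other 4 lines, while Rarg takes 65.1% to 75.9% of the receptor level throughout.

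Crabp1, a binding protein gene, had the highest mean level per kilobase of the set and the widest range. Crabp1 (ENSMUSG00000032291.8, chromosome 9, 54764748 to 54773110) binds retinoic acid in the cytosol, is thought to hold it back from the nucleus or pass it on for breakdown, and marks some fibroblasts of embryonic skin and neural crest. It had 14733, 102 and 6722 normalized counts in Rag1KO replicates 1, 3 and 7, against 67431, 8153 and 43008 in WT replicates 2, 4 and 6. Rag1KO replicate 3 was 661-fold below WT replicate 2, yet Rag1KO replicate 1 lay above WT replicate 4, so the groups overlapped. The means were 7186 ± 7327 and 39531 ± 29792 normalized counts (SD, n = 3 each). The log2 fold change was −3.73 (SE 1.98, 95% interval −8.57 to 1.11, limma adjusted p = 0.850), and −3.43 without WT replicate 6. It was −1.53 without Rag1KO replicate 3, the line with the lowest level. Of the tested genes, 97.5% had a smaller range than Crabp1.

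Crabp2 (ENSMUSG00000004885.5, chromosome 3, 87948666 to 87953376), which delivers retinoic acid to RAR proteins in the nucleus, had 588, 54.5 and 30.0 normalized counts in lines labelled Rag1KO, against 109.8, 1795 and 12.3 in lines labelled WT. WT replicate 4 was highest, WT replicate 6 lowest, and the lines labelled Rag1KO lay between them. The means were 224 ± 316 and 639 ± 1002 normalized counts (SD, n = 3 each), with a log2 fold change of −0.46 (SE 2.01, 95% interval −5.39 to 4.47, limma adjusted p = 0.972). The value was −2.15 without WT replicate 6 and turned to 1.39 without WT replicate 4 and to 0.39 without Rag1KO replicate 7. Per kilobase, Crabp1 exceeded Crabp2 in every line, by 41.3-fold, 3.09-fold and 369-fold in lines labelled Rag1KO and by 1013-fold, 7.49-fold and 5755-fold in lines labelled WT. The 2 lines with the smallest ratio reached it differently: Rag1KO replicate 3 had little Crabp1, and WT replicate 4 had the most Crabp2.

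The window around the annotated start of Crabp1 is shown because the gene had the widest range of the set. It lies at chr9:54764498-54764797 on the plus strand and runs from 250 bases before to 50 bases after the start site (RefSeq, GRCm38.p6, the assembly also called mm10). Capitals mark matches to GGGCGG, the core of a GC box, or to its reverse complement.
Crabp1: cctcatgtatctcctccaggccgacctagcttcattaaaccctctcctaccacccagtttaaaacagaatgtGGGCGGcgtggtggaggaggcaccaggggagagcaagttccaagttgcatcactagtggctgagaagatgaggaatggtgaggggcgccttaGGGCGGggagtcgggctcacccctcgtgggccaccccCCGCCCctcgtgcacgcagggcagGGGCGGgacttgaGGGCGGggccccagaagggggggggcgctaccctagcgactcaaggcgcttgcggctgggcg
There were 5 matches, between −178 and −7 from the start site, and 65.0% of the bases were G or C. GGGCGG on either strand was in 35.7% of the 32851 windows of the same length in the table, so the motif by itself is common. Within the set it was in 6 of the 12 windows available, those of Rara, Rarg and Cyp26b1 among them.

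Of the receptors, Rarg and Rara were steady and Rarb was scarce. Rarg (ENSMUSG00000001288.15, chromosome 15, 102234938 to 102257517), the main RAR of skin and mesenchyme, had 7037, 8468 and 6048 normalized counts in lines labelled Rag1KO, against 7115, 6126 and 6029 in lines labelled WT. The 6 lines spanned 1.40-fold. The log2 fold change was 0.15 (SE 0.19, 95% interval −0.30 to 0.61, limma adjusted p = 0.872), so the interval of the fold ran from 0.810-fold to 1.52-fold. Rara (ENSMUSG00000037992.16, chromosome 11, 98927818 to 98974942), the receptor expressed in most cells, had 2259, 2759 and 2735 normalized counts in lines labelled Rag1KO, against 2306, 3351 and 2160.3 in lines labelled WT. Its log2 fold change was 0.01 (SE 0.23, 95% interval −0.55 to 0.57, limma adjusted p = 0.997), and its sign changed with the library left out. Without WT replicate 6 the log2 fold changes were −0.11 for Rara and 0.11 for Rarg. Smaller ranges than that of Rara were seen in 15.0% of the tested genes, and than that of Rarg in 7.24%.

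Rarb (ENSMUSG00000017491.9, chromosome 14, 16430839 to 16819156) is a receptor gene and also a direct target of retinoic acid, often silenced in tumours. It had 31.6, 24.3 and 27.1 normalized counts in lines labelled Rag1KO, where 33, 21 and 28 reads were counted, against 11.1, 19.3 and 1.76 in lines labelled WT, from 11, 20 and 2 reads. The lines labelled Rag1KO all lay above the lines labelled WT, although Rag1KO replicate 3 and WT replicate 4 differed by a single read before scaling. Groups that did not overlap, with the lines labelled Rag1KO higher, were found for 2 of the 8 genes, Rarb and Cyp26b1, and for 5.6% of all genes tested, while 0 of the 8 did so in the lower direction, against 6.49%. Leaving out a line cannot make separate groups overlap, so Rarb and Cyp26b1 had to stay apart without WT replicate 6. The background, which can only rise with fewer lines, was then 9.4%, and the comparison checks nothing. The means were 27.7 ± 3.68 and 10.7 ± 8.78 normalized counts (SD, n = 3 each) and the log2 fold change was 1.70 (SE 0.83, 95% interval −0.34 to 3.74, limma adjusted p = 0.850). It was 0.87 without WT replicate 6. The downstream end of Rarb overlaps Top2b over 4624 bases (16430839 to 16435462). Top2b is read from the other strand and had 10363 to 13513 normalized counts in lines labelled Rag1KO and 6349 to 12797 in lines labelled WT. Whether the counting used strand was not stated, so some of the few Rarb reads could belong to Top2b. Per kilobase Rarb made up at most 0.276% of the receptor level in any line.

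The start region of Rarb is shown because the gene is known to respond to retinoic acid through an element near this start, which lies within the gene as GENCODE draws it. The window lies at chr14:16575427-16575726 on the minus strand (RefSeq, GRCm38.p6). Capitals mark a direct repeat with 5 bases between its half-sites, the DR5 form of the retinoic acid response element.
Rarb: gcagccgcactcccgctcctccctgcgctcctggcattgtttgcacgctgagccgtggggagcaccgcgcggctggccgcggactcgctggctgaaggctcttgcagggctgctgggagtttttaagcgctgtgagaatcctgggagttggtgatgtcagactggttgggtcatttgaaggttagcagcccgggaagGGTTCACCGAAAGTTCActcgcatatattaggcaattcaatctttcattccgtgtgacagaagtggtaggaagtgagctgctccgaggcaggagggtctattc
The match, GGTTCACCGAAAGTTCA, lay at −53 to −37 from the start site, on the gene's own strand. The half-sites searched were the hexamer AGGTCA and its known variants, namely AGTTCA as well as the hexamer GGGTCA and finally the hexamer GGTTCA, on both strands, spaced by 5, 2 or 1 bases. The DR5 form was in 0.0974% of all windows (32 of 32851), the DR2 form in 0.268% and the DR1 form in 0.222%. Windows were available for 7 of the 9 genes, 12 in all, and Rarb had the only match to any of these forms. Aldh1a3 and Crabp2 were not in the table. A count per gene does not show from which start site the few Rarb reads came.

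Cyp26b1, the clearance enzyme, had the lowest p between the groups, although limma's adjusted p missed the threshold. Cyp26b1 (ENSMUSG00000063415.12, chromosome 6, 84571414 to 84593908) oxidizes retinoic acid and keeps it out of tissues such as the limb bud and the embryonic testis. It had 1482, 834 and 758 normalized counts in Rag1KO replicates 1, 3 and 7 (1547, 720 and 782 reads), against 152, 163 and 15.8 in WT replicates 2, 4 and 6 (151, 169 and 18 reads). The lowest line labelled Rag1KO was above the highest line labelled WT, and within the lines labelled Rag1KO the values spanned 0.97 on the log2 scale, against 3.29 within the lines labelled WT. The means were 1025 ± 398 and 110.4 ± 82.0 normalized counts (SD, n = 3 each). The log2 fold change was 3.71, or 13.0-fold (SE 0.95, 95% interval 1.37 to 6.04, unadjusted p = 0.00818), and limma's adjusted p was 0.850. By p it ranked 83 among the 16137 genes tested. Without WT replicate 6 the log2 fold change was 2.63 (limma, unadjusted p = 0.000765, adjusted p = 0.761).

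On the recovered reads, edgeR's quasi-likelihood test gave Cyp26b1 a log2 fold change of 3.23 and an adjusted p of 0.891, and called 0 of the 8 genes, with a background of 0%. DESeq2 gave 3.22 and an adjusted p of 0.0336 and called 1 of the 8 genes, Cyp26b1, where its background was 0.41% in either direction and 0.284% for genes higher in lines labelled Rag1KO. Cyp26b1 was thus past the threshold in DESeq2 and not in limma or edgeR. It was lowest in WT replicate 6, the lowest library for 30.2% of all genes tested. That line had reads of Kdm5d, Uty and Ddx3y but 0 reads of Eif2s3y, and any part of sex-linked expression in the result was not tested. Smooth muscle markers, 6 genes that were all detected, had a summed level of 69463 to 471484 normalized counts in lines labelled Rag1KO and of 353 to 150157 in lines labelled WT, lowest in WT replicate 6, where Cnn1 had 0 reads. Their part in the result was not tested.

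**Figure D3:**
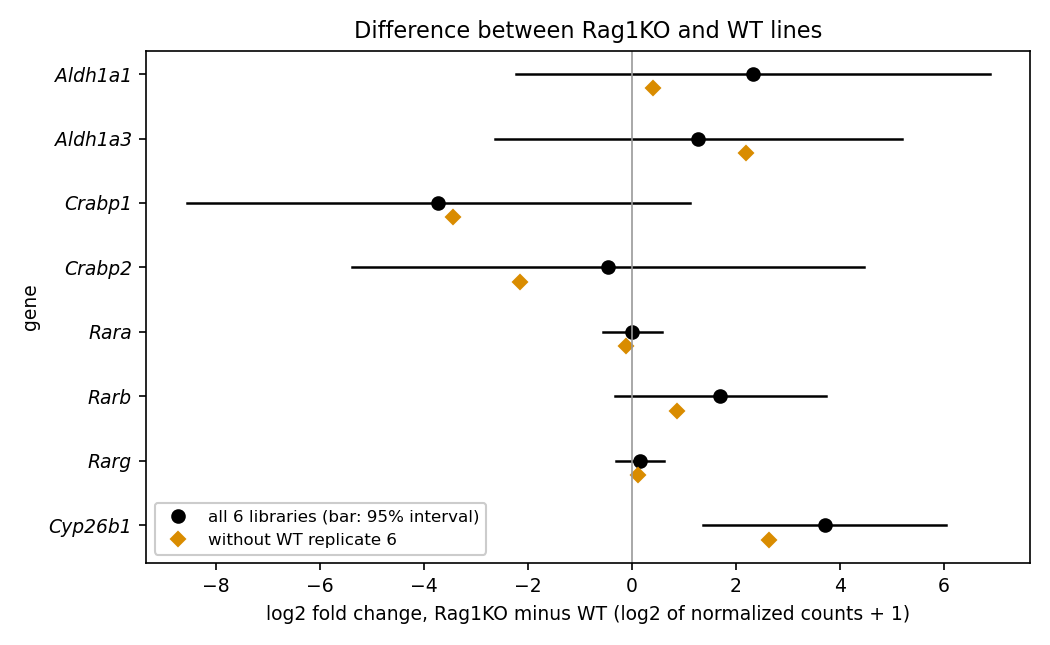
Log2 fold change, Rag1KO minus WT, on the log2(normalized counts + 1) scale (x axis) for the 8 genes tested (y axis), with 95% intervals from limma as bars and the value without WT replicate 6 as diamonds. The interval of Cyp26b1, 1.37 to 6.04, is the 1 that does not reach 0, and the intervals of Rara and Rarg are narrow while those of the Aldh1a and Crabp genes each span several log2 units.

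The start region of Cyp26b1 is shown because the gene had the lowest p of the set. It lies at chr6:84593761-84594060 on the minus strand (RefSeq, GRCm38.p6), and capitals mark TATAAA, the core of a TATA box.
Cyp26b1: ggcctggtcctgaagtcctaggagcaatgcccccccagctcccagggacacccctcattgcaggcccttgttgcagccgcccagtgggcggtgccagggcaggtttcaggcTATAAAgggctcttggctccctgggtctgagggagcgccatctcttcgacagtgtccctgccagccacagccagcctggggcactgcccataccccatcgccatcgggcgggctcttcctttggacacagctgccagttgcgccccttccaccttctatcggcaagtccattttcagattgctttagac
TATAAA lay at −139 to −134 from the RefSeq start, but GENCODE M21 places the start of the gene 98 bases further upstream, and from there its first base was 41 bases upstream. On either strand TATAAA was in 13.6% of all windows, and of the 7 genes with a window Cyp26b1 was the only one with it. Neither the DR5, the DR2 nor the DR1 form was matched in this window, which says only that these letters are not within it.

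Genes with the profile most like that of a set member were taken as those with the smallest root mean square distance between centred log2 values over the 6 libraries. For Cyp26b1 these were Hr, a nuclear receptor corepressor (0.51), Myom1, a sarcomere protein gene (0.54), and the zinc finger gene Ikzf4 (0.57). Hr had 690.0, 1153 and 437 normalized counts in lines labelled Rag1KO, against 150.1, 126 and 12.3 in lines labelled WT. For Aldh1a1 they were the actin-binding gene Ablim1 (0.46), the adenylate cyclase gene Adcy1 (0.53) and Plekhg4 (0.64), all lowest in WT replicate 6 and second lowest in Rag1KO replicate 3. For Crabp2 they were Serpinb9g (0.85), Fat2 (0.89) and Gprc5c (0.95). Crabp1 had no close match: Klf8 (1.34), Spink2 (1.41) and Lipg (1.42) were the nearest. They were chosen from all tested genes by likeness, so the likeness itself is no finding.

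The other genes of the pathway, 79 in a list by role, showed no group-wide difference that passed. Of these 50 were tested, 0 passed in limma (background 0.0062%), 30 had a positive and 20 a negative log2 fold change, and the median was 0.09. Without WT replicate 6 the median was −0.06, with 23 positive. DESeq2 called 1 of the 50, although it gave no p to Dhrs3 and Rarres1. Its background was 0.41% of the 15863 genes with an adjusted p. Groups did not overlap for 4 of the 50, against 12.1% of all genes tested in either direction. Of the uptake and transport list, 3 of 9 genes were tested and 0 passed. Their median log2 fold change was 0.04, and −0.18 without WT replicate 6. Stra6, the receptor for serum retinol, averaged 15.5 ± 14.8 normalized counts in lines labelled Rag1KO and 50.7 ± 67.2 in lines labelled WT, and Scarb1, a receptor for lipoproteins and carotenoids, 4921 ± 1569 and 4759 ± 1320.

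Of the oxidation and storage list, 14 of 24 genes were tested, 7 positive and 7 negative, and 0 passed. Groups did not overlap for 2 of the 14, where the background was 12.1%. Without WT replicate 6 the median of this list was −0.22, with 6 positive and 8 negative, where it was −0.01 with all lines. Rdh10, the main retinol dehydrogenase of the embryo, averaged 481 ± 187 normalized counts in lines labelled Rag1KO and 1016 ± 470.2 in lines labelled WT (log2 fold change −1.05, limma adjusted p = 0.850), and WT replicate 6 was its highest line at 1553. Adh5, the alcohol dehydrogenase that mainly handles formaldehyde adducts, averaged 3910 ± 391 and 5755 ± 1067 normalized counts with groups that did not overlap (log2 fold change −0.55, limma adjusted p = 0.850). Rdh12 averaged 20.7 ± 5.01 and 9.87 ± 1.71 normalized counts, also without overlap, and Rdh13 averaged 660.0 ± 110.7 and 869.9 ± 132. Lrat, the enzyme that stores retinol as ester, had 0 reads in all 6 libraries.

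The partner receptor list held RXR and COUP-TF genes, Ppard and the lipid carrier Fabp5, with 7 of 8 tested and 0 past the threshold. Rxra, the RXR with the highest level per kilobase, averaged 8154 ± 379 normalized counts in lines labelled Rag1KO and 6435 ± 3325 in lines labelled WT. Nr2f1, a COUP-TF gene and repressor of retinoid signalling, averaged 384 ± 133 and 2328 ± 3075 normalized counts, with 5875 in WT replicate 6. Nr2f2 averaged 1912 ± 806 and 3148 ± 1219 and Nr2f6 1645 ± 207 and 2050 ± 187 normalized counts. Of the coregulators, 14 of 16 were tested, 9 positive and 5 negative, with 0 past the threshold. Groups did not overlap for 2 of the 14, where the background was 12.1%. The corepressor gene Ncor1 averaged 10441 ± 1125 and 13691 ± 1411 normalized counts without overlap, the ligand-dependent corepressor Nrip1 1897 ± 180.5 and 1408 ± 352, and the coactivator Ncoa1 1459 ± 351 and 2065 ± 558, lines labelled Rag1KO first in each pair.

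Of 19 genes reported elsewhere as targets of retinoic acid, 12 were tested, 9 were positive and 3 negative, the median log2 fold change was 0.25 and 0 passed. The direction of this list turned without WT replicate 6, with 4 positive, 8 negative and a median of −0.06. The antiproliferative gene Btg2 averaged 1671 ± 1113 normalized counts in lines labelled Rag1KO and 702 ± 495 in lines labelled WT. The receptor tyrosine kinase gene Ret averaged 278 ± 298 and 82.2 ± 71.2 normalized counts, and WT replicate 6 had 0 reads of it. With all lines Ret had a log2 fold change of 2.58, and leaving out WT replicate 6 made it 0.26.

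**Figure D4:**
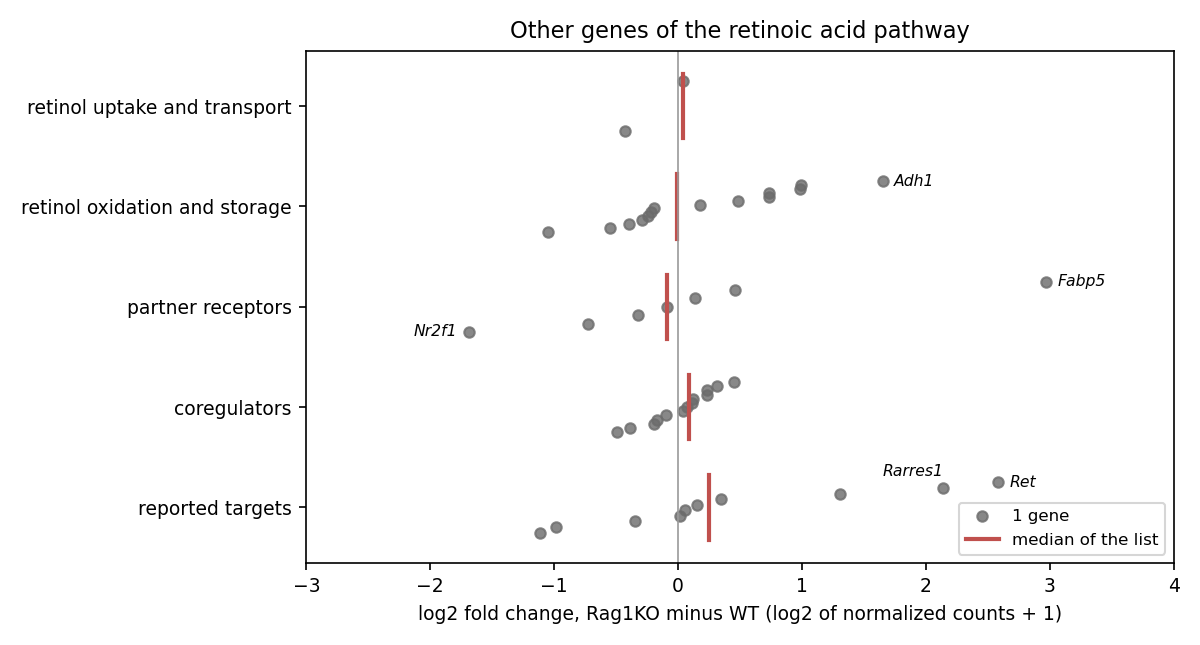
Log2 fold change, Rag1KO minus WT (x axis), of other pathway genes, 1 dot per gene for 46 of the 50 tested, grouped by role (y axis), with the median over all tested genes of each list as a red bar. The medians lie between −0.09 and 0.25, and among the dots Fabp5 at 2.97 is the farthest from 0. Leaving out WT replicate 6 made the value of Fabp5 −0.06.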

How the data were processed

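RNA from 6 cell lines was sequenced from Illumina TruSeq Stranded libraries, per the labels. The submitters' processing notes name the build mm10, DESeq2, STAR 2.7.9a, FastQC and Trim Galore 0.6.6 without saying what each did, and the read counter is not given in the sources used here. The deposited values are a signal per gene: whole reads divided by 1 size factor per library (100.0% of values whole within 0.01 reads), the factors equal to median-of-ratios factors within 1.03e-10.

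Lengths (union of exons) and coordinates come from GENCODE M21, which holds 55141 of 55401 gene IDs. Genes kept by filterByExpr (16137) were fitted with limma 3.58.1 on log2(value + 1) with a mean-variance trend, two-sided, Benjamini-Hochberg adjusted, threshold 0.05. The fold change understates that of low genes. edgeR 4.0.16 and DESeq2 1.42.0 were run on the recovered reads, in R 4.3.3, and figures drawn with Python 3.11.15. The fit was tested on simulated data, but a pass was required only at a small fixed spread and not at the spread estimated from these lines. Other scalings, filters, a pseudocount of 0.1 and leaving out each library were tried.

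The genes, lists and tests were chosen with earlier results of these data known. Named are all 9 genes, up to 4 tested genes of the lowest p per pathway role (4 of these are not reported here by name but stay in the counts and medians), and the 3 genes closest in profile to each of the 4 genes with the widest range. Others were chosen after their values were seen, among them Lrat, Aldh1a7 and Top2b. The motifs TATAAA and GGGCGG and the Aldh1a sum were also chosen then. Reads were not deduplicated by molecular identifiers, so limits cover counting error only.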

Additional observations from a re-analysis of the deposited data

How the results depend on the processing

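Over the 8 genes tested, 14 alternatives gave 111 log2 fold changes, of which 101 kept both direction and side of the threshold. Cyp26b1 stayed positive in all 14, from 2.63 to 4.27, and passed in DESeq2 (3.22) while its adjusted p over the alternatives ran from 0.0336 to 0.957. The sign turned for Aldh1a3 without WT replicate 2 (−0.22, in a leave-one-out range up to 2.44), for Crabp2 without Rag1KO replicate 7 (0.39) or WT replicate 4 (1.39, range from −2.15), and for Rara, whose value lay near 0, in edgeR (−0.0015), in DESeq2 (−0.0023) and without Rag1KO replicate 3 (−0.04), Rag1KO replicate 7 (−0.03), WT replicate 2 (−0.06) or WT replicate 6 (−0.11, range up to 0.21). The cause was not tested. The size of some fold changes also moved with the method. Both edgeR and DESeq2 gave −1.50 for Crabp2, −2.45 for Crabp1 and 1.59 for Aldh1a1, where limma gave −0.46, −3.73 and 2.33. The filter of 1 CPM in 3 libraries left Rarb untested. The number of the 8 genes past the threshold was 0 in limma under every scaling, filter, pseudocount and left-out library, and 1 in DESeq2. For other pathway genes it was 0 and, in DESeq2, 1. Over all genes it was 1 in limma, 0 in edgeR and limma-voom, 65 in DESeq2 and 0 to 5 with a library left out. Genes whose groups did not overlap numbered 2 of 8 with all lines, against 12.1% of all genes tested in either direction. Without WT replicate 6, an alternative chosen after seeing the data, they numbered 2 of 8, against 20.6%. Leaving out a line cannot make separate groups overlap, so neither the count nor the background could fall, and the comparison checks nothing. The pathway list medians without WT replicate 6 were also added after seeing the data. With 3 lines per group the 95% intervals of the Aldh1a and Crabp genes span several log2 units, so their group differences were not resolved. No paired analysis was possible because the groups share no replicate numbers.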

Other observations

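Several pathway genes that did not pass the filter on low values had their reads mainly in WT replicate 6. These genes were chosen after their values were seen, and none was tested. Cyp26a1, a CYP26 enzyme that retinoic acid strongly induces in many cells, had 0 reads in all 3 lines labelled Rag1KO, and 1.01, 3.86 and 33.4 normalized counts in WT replicates 2, 4 and 6. Cyp26c1, the third enzyme of that family, had 6.71, 0 and 5.81 normalized counts in lines labelled Rag1KO, against 12.1, 1.93 and 39.6 in lines labelled WT. In WT replicate 6 both were thus at their highest, in the line where Cyp26b1 was at its lowest with 15.8 normalized counts. Rxrg, an RXR gene of restricted expression, had at most 4.84 normalized counts in lines labelled Rag1KO, against 0, 0.966 and 404 in WT replicates 2, 4 and 6. Fabp5, a lipid carrier that can bring retinoic acid to PPAR proteins, was tested and had 2947, 745 and 3210 normalized counts in lines labelled Rag1KO, against 1021, 3923 and 2.64 in lines labelled WT, the last from 3 reads.

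Dhrs3, an enzyme that returns retinaldehyde to retinol, had 484, 5266 and 511 normalized counts in lines labelled Rag1KO, against 282, 1961 and 509 in lines labelled WT. Its highest line, Rag1KO replicate 3, was the line with the least Crabp1 (102) and the most Aldh1a3 (1356).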
